A study of Mus musculus x Mus spretus with 8 samples.

Results

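RNA from cells labelled as fibroblasts and as homozygous null for Stc1 was compared with RNA from wild-type (WT) cells. The comparison was made across all genes and separately for each parental genome. The comparison holds 4 of the 8 sequenced libraries: 1 from each of 2 Stc1-null lines, which the series design describes as independent mutants, and 2 from WT cells. All were Patski cells, an immortal female hybrid line with 1 parental genome from C57BL/6 and the other from SPRET/EiJ (Mus spretus), grown in DMEM with 10% FBS. The mutant libraries carried the genotype stc1 -/- and the others were wild type, with no other allele or agent given. The labels do not say how Stc1 was disrupted, whether each line came from 1 cell, or whether the WT libraries came from separate cultures. The p-values and standard errors thus measure only the spread between libraries of a group, estimated over all 8 libraries of the series. Groups are named by their labels, as Stc1-labelled line 1, Stc1-labelled line 2 and WT.

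Stanniocalcin 1, the product of Stc1, is a secreted glycoprotein first known from fish as a hormone that lowers calcium uptake. In mammals it acts near the cells that make it, the kidney being a main source, and it inhibits the PAPP-A proteases that release insulin-like growth factors from their binding proteins. STC1 has also been studied as a factor of X inactivation, the silencing of an X chromosome in female cells. In a hybrid line the parental genomes differ at many bases, so a read that spans such a base can be assigned to genome 1 or genome 2. A gene regulated through a diffusible factor can change on both genomes, whereas the gain or loss of a chromosome copy changes 1 genome over many neighbouring genes. Which parent is genome 1 is not stated in the labels.

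Total counts were 73128996 and 74961476 in Stc1-labelled lines 1 and 2, and 76125575 and 81500061 in WT. Of these counts, 50.6 to 52.2% carried a genome, and 4.64 to 8.18% came from mitochondrial genes, with line 2 the lowest. The fibroblast label was checked against 12 markers. Vim and Fn1 were abundant (Fn1 at 3966 and 4536 CPM against 2230 and 2343 CPM in WT), while 6 of the 12, including Col1a2, Dcn and Pdgfrb, lay under 1 CPM and Thy1 and Lum had 0 reads. The fibroblast label was thus borne out by only part of its markers. CPM, the reads of a gene relative to all reads of its library, were scaled to library sizes with TMM factors. Of 14 kidney tubule markers 9 exceeded 1 CPM, among them Lrp2, Cdh16, Pax2 and Pax8, which were not called in either direction; Slc34a1 had 0 reads. The summed tubule markers reached 7559 and 6245 CPM in the Stc1-labelled lines, against 9258 and 9829 CPM in WT. The lower sum came from Aqp1, at 2704 and 1739 CPM against 5048 and 5471 CPM in WT. Cdh16 was higher than WT, at 2150 and 2364.5 CPM against 1781 and 1894 CPM. Both lines lay above both WT libraries for 3 of the 14 markers and below them for 4, where 22.2% of all tested genes did each.

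The targeted gene was examined first. Stc1 (chromosome 14, 69029238 to 69041804, GRCm38, plus strand) was measured at 3.67 CPM in Stc1-labelled line 1 and 68.4 CPM in line 2, against 3.84 and 3.15 CPM in WT. Line 1 lay between the WT libraries and line 2 was far above both, so in neither line was Stc1 RNA below WT. The log2 fold change was 3.37 ± 1.06 (SE, n = 2 per group) and did not pass the test (edgeR quasi-likelihood test, adjusted p = 0.236). Without line 1 it was 4.28 (edgeR, adjusted p = 0.0011) and without line 2 it was 0.065 (edgeR, adjusted p = 0.949), each fit assuming that the remaining library varies like the other groups. Every direction below is therefore one for libraries whose label was not borne out by a lower target RNA. Counts per gene hold no information on an edit inside the transcript, and Stc1 overlaps the annotated gene Gm41192.

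The Stc1 reads of the lines also came from different genomes. In line 1, 86 reads came from genome 1 and 48 from genome 2, a genome 1 share of 64.2%. In line 2, 185 came from genome 1 and 2348 from genome 2, a share of 7.30%. The WT libraries had 113 and 101 reads from genome 1, and 33 and 23 from genome 2, which gave shares of 77.4 and 81.5%. The excess Stc1 RNA of line 2 thus came mostly from genome 2, on which both WT libraries had few reads. The change of share did not pass the test over both lines (edgeR, adjusted p = 0.564).

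Chromosome 14 was then read on either side of Stc1, a window chosen after its values were seen. Genes with at least 50 reads with a genome in every library and 20 to 80% of them from genome 1 in WT were used, and their genome 1 share was compared with the WT mean. In line 2 the median difference was 1.36 percentage points over the 245 genes before Stc1, and -7.60 over the 87 genes after it, where 77 of the 87 were lower. Over the 20 nearest genes on each side, genome 2 reads of line 2 had a median log2 change of -0.40 before and 0.52 after, while genome 1 reads changed by -0.12 and -0.05. In line 1 the share was lower along the chromosome, by -10.1 points before and -8.90 after, with genome 1 reads at -0.63 and -0.54 and genome 2 reads at 0.02 and 0.03. The share was thus lower for 238 of 245 and 85 of 87 genes in line 1, whereas line 2 had a change of level near the targeted locus, with more genome 2 reads beyond it.

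The step at Stc1 was -8.97 percentage points in line 2 and 1.23 in line 1. In WT it was 0.08 and -0.09, and in the other mutant libraries of the series, labelled Pygo1 and Rlim, it lay between -2.03 and 0.87. Such steps were not unique to this locus. Of 6110 positions along the genome at which medians of 20 genes on each side were compared, 28 in line 2 had a step at least as large as the -10.6 points at Stc1 by that measure, namely 6 on chromosome 14, 8 on chromosome 15 and 14 on chromosome 6. Line 1 had 113 such positions, on chromosomes 1, 7 and 13, and WT replicate 2 against replicate 1 had 0. Windows of neighbouring positions overlap, so positions are not separate steps. The 6 on chromosome 14 in line 2 ran from Kctd9 to Rhobtb2, with Stc1 among them.

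**Figure D1:**
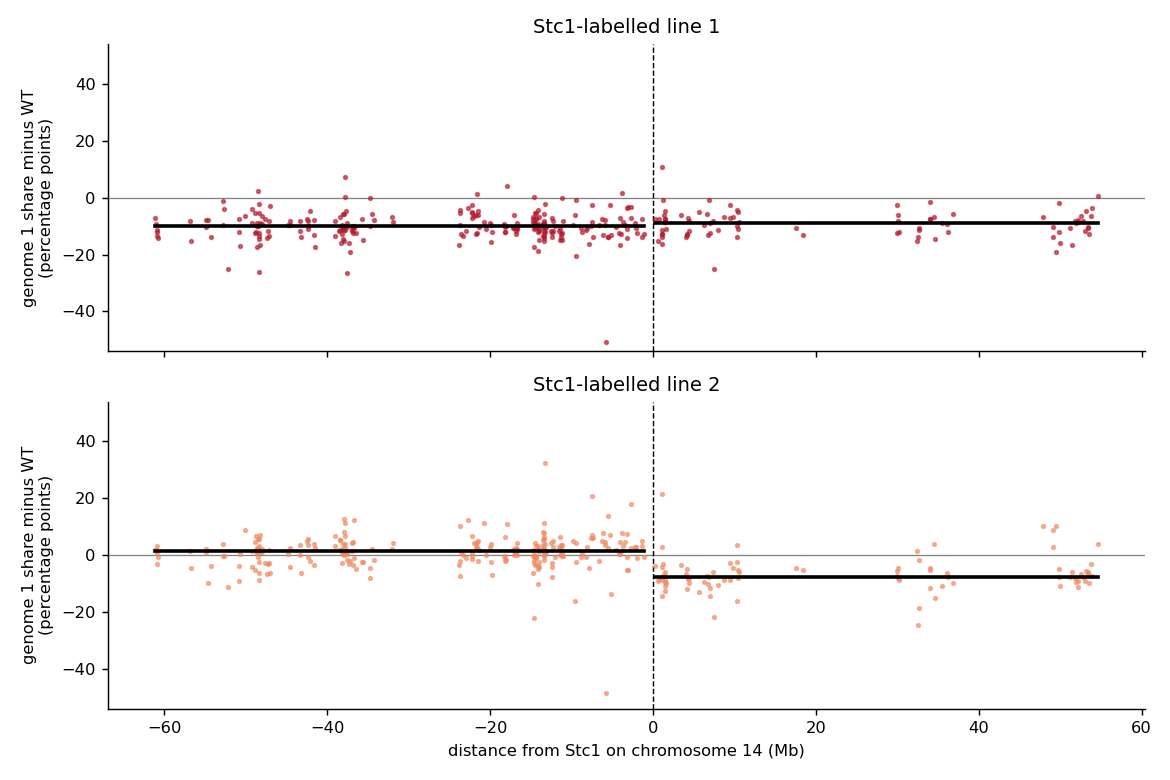
Genome 1 share of each gene on chromosome 14 minus its WT mean (percentage points), by distance from Stc1 (Mb), for Stc1-labelled line 1 (top) and line 2 (bottom). Black bars are medians on each side of Stc1 (dashed line): -10.1 and -8.90 points in line 1, and 1.36 and -7.60 points in line 2, where the level differs between the sides.

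Over 17839 genes tested, 51 were higher in the Stc1-labelled lines (0.286%) and 52 were lower (0.291%) at an adjusted p under 0.05, and these 103 genes (0.577%) are referred to as called. Of them 44 and 42 changed at least 2-fold. For each of the 103 the lines did not overlap WT; of all tested genes, 22.2% had both lines above both WT libraries and 22.2% had both below. The median log2 change of all genes was 0.01. The count rested on the WT libraries and on a spread estimated over all 8 libraries: without WT replicate 1 edgeR called 4 genes, without WT replicate 2 it called 3, and when fitted without the other mutants it called 0 (1735 at an unadjusted p under 0.05, and 956 called by DESeq2 over all 8 libraries). Without line 1 the count was 4484 and without line 2 it was 1211, and all 103 called genes were among both. Without either Rlim-labelled library 14 of the 103 passed.

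The lines differed from each other far more than the WT libraries did. Among 12959 genes averaging 1 CPM or more, 1721 (13.3%) were at least 2-fold apart between the lines, against 16 (0.123%) between the WT libraries. Line 1 was at least 2-fold above the WT mean for 303 genes (2.34%) and below it for 389 (3.0%). Line 2 was above it for 641 (4.95%) and below it for 810 (6.25%). Both lines were above for 130 genes (1.0%) and both below for 106 (0.818%), and 92 (0.71%) moved at least 2-fold in opposite directions. The called genes lay closer together, with a median absolute log2 difference between the lines of 0.25, against 0.37 for all genes of at least 1 CPM; the test favours genes that vary little. Of the called genes 8, Nos2 among them, were at least 2-fold apart between the lines.

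**Figure D2:**
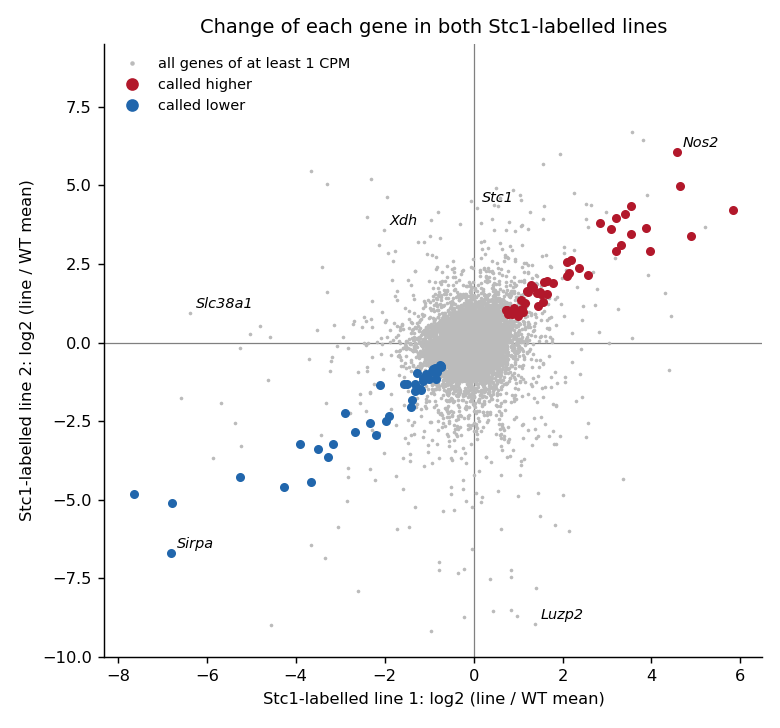
Log2 ratio of each Stc1-labelled line to the WT mean, line 1 on the horizontal and line 2 on the vertical axis, for genes averaging 1 CPM or more (grey) and the called genes among them (red higher, blue lower). The called genes follow the diagonal, while Stc1 and Xdh lie high in line 2 and Luzp2 low in it.

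Genes of inflammatory signalling were among the largest rises in both lines. Nos2, the inducible nitric oxide synthase (chromosome 11, 78920787 to 78960254), was measured at 122 CPM in line 1 and 338 CPM in line 2, against 5.13 and 4.99 CPM in WT. Both lines were far above WT, and line 2 was above line 1. Its log2 fold change was 5.50 ± 0.47 (SE, n = 2 per group; edgeR, adjusted p = 0.0161). Steap4, a metalloreductase of iron and copper uptake (chromosome 5, 7960457 to 7982213), was measured at 18.96 and 23.8 CPM in the lines, against 0.716 and 0.777 CPM in WT (log2 4.84 ± 0.44; edgeR, adjusted p = 0.0161). Lcn2, the siderophore-binding lipocalin, was at 265 and 269 CPM in the lines, against 61.5 and 62.1 CPM in WT, with the lines close to each other (log2 2.11 ± 0.13; edgeR, adjusted p = 0.00397).

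Of 24 measured chemokine and cytokine genes, 4 rose, 0 fell and the median log2 change was 2.22, against 0.01 over all genes tested. Of all genes tested 0.286% were called higher and 0.291% lower, the shares to set beside the counts of this and later lists. Line 1 had a median of 0.84 and line 2 of 2.28. Cxcl1, a ligand of the neutrophil receptor CXCR2, was at 61.6 and 99.995 CPM in the lines, against 5.73 and 5.96 CPM in WT (edgeR, adjusted p = 0.00397). Cxcl5, another CXCR2 ligand, also on chromosome 5, was at 244 and 231 CPM, against 22.2 and 19.7 CPM in WT (edgeR, adjusted p = 0.00738). Ccl20, the ligand of CCR6, was at 4.81 and 4.11 CPM, against 0.365 and 0.263 CPM in WT, and Lif, a cytokine of the interleukin 6 family, at 44.8 and 61.2 CPM, against 18.9 and 20.1 CPM in WT (edgeR, adjusted p = 0.00397 and 0.0225). The remaining members did not pass. Among them were Ccl2, at 145 and 380 CPM against 67.5 and 65.0 CPM in WT, and Csf3, at 2.69 and 15.2 CPM against 0.56 and 0.539 CPM in WT, both higher in line 2 than in line 1. Cxcl12 lay apart from these, at 4.89 CPM in line 1 and 15.2 CPM in line 2, against 15.8 and 15.1 CPM in WT.

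Among 33 subunits and feedback inhibitors of NF-kB, the transcription factor downstream of many inflammatory receptors, 2 rose and 0 fell, with a median of 0.44. Zc3h12a, a ribonuclease that degrades cytokine messages, was at 59.6 and 60.1 CPM in the lines, against 11.7 and 11.4 CPM in WT (log2 2.37 ± 0.15; edgeR, adjusted p = 0.00397). Bcl3, a nuclear member of the IkB family, was at 134 and 164 CPM, against 78.1 and 82.8 CPM in WT (edgeR, adjusted p = 0.0494). The inhibitors Nfkbia and Tnfaip3 were at 37.2 and 74.3 CPM and at 20.8 and 41.5 CPM in the lines, against 15.3 and 16.5 CPM and 9.29 and 8.38 CPM in WT, and did not pass (edgeR, adjusted p = 0.0652 and 0.0669). Tnfrsf9, the receptor 4-1BB, was at 10.5 and 8.43 CPM against 1.09 and 1.14 CPM in WT, and Neurl3, an E3 ubiquitin ligase, at 54.8 and 73.8 CPM against 11.7 and 12.4 CPM in WT (edgeR, adjusted p = 0.0256 and 0.00397). Cebpd, an acute-phase transcription factor whose gene overlaps Spidr, was at 39.6 and 43.6 CPM, against 13.8 and 15.5 CPM in WT (edgeR, adjusted p = 0.011). Interferon response genes showed no call in 41, with a median of -0.30 in line 1 and 0.68 in line 2.

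These 12 genes that rose lost their call without WT replicate 1 (edgeR, adjusted p 0.109 to 0.532) or WT replicate 2 (0.136 to 0.501), and 6 of them, Cxcl1, Cxcl5, Ccl20, Lcn2, Zc3h12a and Neurl3, kept it without either Rlim-labelled library. Leukocyte markers did not move with them as a list. Ptprc and Adgre1 stayed under 1 CPM and Tyrobp had 0 reads in every library, and the 8 markers summed to 113 and 96.1 CPM in the lines, against 104 and 110 CPM in WT. The 6 endothelial markers summed to 8.10 CPM in line 1 and 102.5 CPM in line 2, against 2.63 and 3.23 CPM in WT. That sum was mostly Cdh5, at 6.01 and 100.3 CPM against 1.59 and 1.54 CPM in WT, and Kdr stayed at or under 0.0139 CPM; the part of these markers in the rises was not tested. In bulk RNA, more cells of a type and more RNA per cell cannot be told apart.

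**Figure D3:**
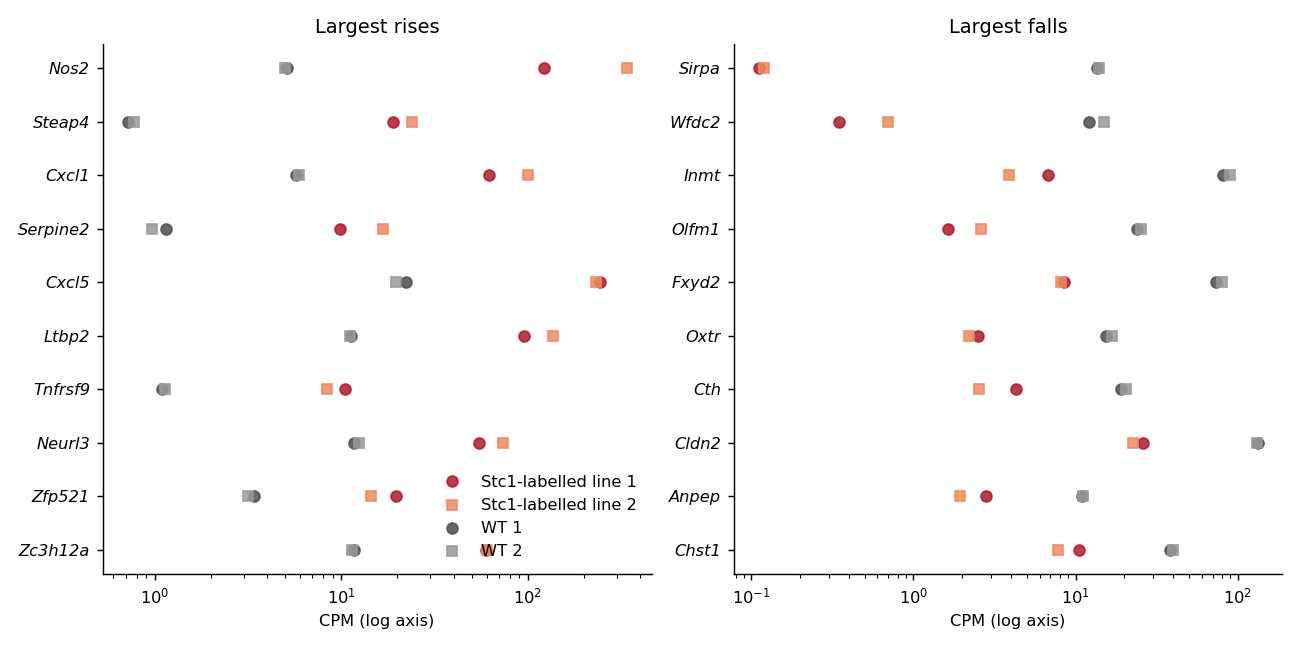
CPM (log axis) of the 10 genes with the largest rise (left) and the largest fall (right), among called genes averaging 5 CPM or more, in Stc1-labelled line 1, line 2 and both WT libraries. In each row the Stc1-labelled points are separate from the WT points, Nos2 at 122 and 338 CPM against 5.13 and 4.99 CPM, and Sirpa at 0.111 and 0.120 CPM against 13.6 and 13.9 CPM.

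Among genes of TGF-beta and BMP signalling and of the extracellular space, 5 named genes rose. Ltbp2, a latent TGF-beta binding protein of elastic fibres, was at 94.7 and 136 CPM in the lines, against 11.3 and 11.1 CPM in WT (log2 3.37 ± 0.17; edgeR, adjusted p = 0.00223), although it overlaps D030025P21Rik, which was called higher too. Smad9, a receptor-activated SMAD of the BMP branch, was at 7.02 and 7.56 CPM, against 1.94 and 2.14 CPM in WT, and Id2, a BMP target that inhibits basic helix-loop-helix factors, at 40.2 and 36.2 CPM, against 19.99 and 20.1 CPM in WT (edgeR, adjusted p = 0.0161 and 0.0341). These were the 3 called of 36 measured pathway genes, 0 fell, and the list median was 0.41. Serpine2, a secreted inhibitor of thrombin and plasminogen activators, was at 9.89 and 16.7 CPM against 1.15 and 0.965 CPM in WT, and Zfp521, a zinc finger cofactor, at 19.6 and 14.4 CPM against 3.39 and 3.15 CPM in WT (edgeR, adjusted p = 0.0346 and 0.0135). Of 27 matrix proteases and inhibitors, Serpine2 rose, Anpep fell and the median was -0.07, and of 33 collagens and matrix genes 0 were called, with medians of -0.09 in line 1 and 0.31 in line 2. Without WT replicate 1 or 2 none of these 5 passed (edgeR, adjusted p 0.109 to 0.486), and without either Rlim-labelled library Ltbp2 alone did. The 5 smooth muscle and pericyte markers summed to 244 CPM in line 1 and 583 CPM in line 2, against 132 and 151 CPM in WT. That sum was mostly Acta2, at 174 and 443 CPM against 72.6 and 81.4 CPM in WT, and Tagln, at 60.2 and 113 CPM against 33.9 and 37.7 CPM. Cnn1 went the other way in line 1, at 9.72 CPM, and was at 26.0 CPM in line 2, against 25.0 and 31.9 CPM in WT. Myh11 and Rgs5 stayed under 1 CPM. No member was called, and the part of these markers in the rises was not tested.

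Some genes of the kidney tubule fell. Of 23 measured genes of tubule transport and enzymes, 6 fell and 0 rose, while the list median was -0.19, with 0.22 in line 1 and -1.13 in line 2. Both lines lay above both WT libraries for 6 of the 23 and below them for 8, where 22.2% of all tested genes did each. Fxyd2, the gamma subunit of the renal Na,K-ATPase (chromosome 9, 45399669 to 45410278), was at 8.48 and 8.19 CPM in the lines, against 73.3 and 79.6 CPM in WT (log2 -3.20 ± 0.12; edgeR, adjusted p = 0.000561). Cldn2, the claudin of cation-leaky tubule junctions (chromosome X, 139800828 to 139811386), was at 26.1 and 22.5 CPM, against 133 and 132 CPM in WT (log2 -2.44 ± 0.11; edgeR, adjusted p = 0.00114). Both kept their call when WT replicate 1 was left out (edgeR, adjusted p = 0.0248 and 0.0362) or WT replicate 2 (0.0326 and 0.0349), but Cldn2 lost it when each chromosome was scaled to WT (edgeR, adjusted p = 0.0538).

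Wfdc2, a secreted protease inhibitor-like protein of epithelia, was at 0.346 and 0.692 CPM in the lines, against 12.2 and 15.02 CPM in WT (log2 -4.70 ± 0.39; edgeR, adjusted p = 0.0135). Inmt, an indolethylamine methyltransferase, was at 6.80 and 3.90 CPM, against 81.4 and 89.8 CPM in WT. Oxtr, the oxytocin receptor, was at 2.49 and 2.21 CPM, against 15.3 and 16.7 CPM in WT, and Anpep, the brush border aminopeptidase N, at 2.80 and 1.94 CPM, against 10.98 and 11.2 CPM in WT (edgeR, adjusted p = 0.0445, 0.0161 and 0.0151 for Inmt, Oxtr and Anpep). These 4 genes did not pass without WT replicate 1 or WT replicate 2. The abundant water channel gene Aqp1 was at 2704 and 1739 CPM, against 5048 and 5471 CPM in WT, and did not pass (edgeR, adjusted p = 0.0678).

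Among 21 nephric lineage transcription factors, Gata3 rose, 0 fell and the median was 0.09. Gata3 was at 1.47 and 1.81 CPM in the lines, against 0.508 and 0.414 CPM in WT (edgeR, adjusted p = 0.0425), overlaps 2 other genes, and lost its call without either Pygo1-labelled library (0.0604 and 0.0611). Pax2 was at 927 and 844 CPM against 733 and 731 CPM in WT, and Pax8 at 623 and 479 CPM against 532 and 561 CPM in WT, and neither passed. Both lines lay above WT for Pax2, and the lines lay on either side of WT for Pax8.

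Of the 21 measured genes of stanniocalcin, PAPP-A and mineral handling, 1 fell and 0 rose, with a median of -0.06. The called gene was Ank, a membrane protein of ATP and pyrophosphate export (chromosome 15, overlapping Mir7117), at 21.9 and 22.0 CPM in the lines, against 54.1 and 55.7 CPM in WT (log2 -1.32 ± 0.10; edgeR, adjusted p = 0.00738, and not passing without WT replicate 1 or 2). Stc2, the paralog of Stc1, was at 112 CPM in line 1 and 309 CPM in line 2, against 159 and 170 CPM in WT. Pappa, which encodes the protease that stanniocalcins inhibit, was at 3.53 and 4.21 CPM against 1.69 and 1.73 CPM in WT, and its substrate Igfbp4 at 7.67 and 2.60 CPM against 2.36 and 2.62 CPM in WT. Vdr, the vitamin D receptor, was at 18.3 CPM in line 1 and 93.5 CPM in line 2, against 95.5 and 102 CPM in WT. For Stc2 the lines lay on opposite sides of WT, while for Igfbp4 and Vdr line 2 was near WT and line 1 was not. None of these 4 genes passed.

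A few genes of amino acid stress fell. Of 35 measured members of the ATF4 and unfolded protein response list 3 fell and 0 rose, with a median of -0.50. Cth, the cystathionine gamma-lyase of cysteine synthesis, was at 4.28 and 2.54 CPM in the lines, against 19.1 and 20.5 CPM in WT (log2 -2.54 ± 0.27; edgeR, adjusted p = 0.02). Chac1, a glutathione-degrading enzyme induced by ATF4, was at 37.1 and 27.5 CPM against 90.7 and 103 CPM in WT, and Trib3, a pseudokinase also induced by ATF4, at 28.2 and 26.5 CPM against 57.5 and 66.8 CPM in WT (edgeR, adjusted p = 0.0256 and 0.0225). Both lines lay below both WT libraries for 22 of the 35 genes, where 22.2% of all genes did. Asns, asparagine synthetase, was at 90.8 and 45.1 CPM against 188 and 194 CPM in WT, and Mthfd2, of mitochondrial folate metabolism, at 44.4 and 25.3 CPM against 93.1 and 94.1 CPM in WT, and neither passed (edgeR, adjusted p = 0.103 and 0.0668).

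Cholesterol synthesis showed 1 call in 28 genes and a median of -0.47. The called gene, Insig1, which retains the sterol sensor in the endoplasmic reticulum, was at 16.0 and 12.8 CPM in the lines, against 28.8 and 28.6 CPM in WT (edgeR, adjusted p = 0.0494), and lost its call without either Pygo1-labelled library (0.0688 and 0.0681). In glycolysis and hypoxia, 1 of 35 genes rose and 1 fell, with a median of 0.50. Pfkl, the liver-type phosphofructokinase, was at 639 and 698 CPM against 222 and 233 CPM in WT, and Aldoc, an aldolase isoform, at 0.208 and 0.200 CPM against 1.24 and 1.63 CPM in WT (edgeR, adjusted p = 0.0161 and 0.0256). The 6 called genes of these metabolic lists lost their calls without WT replicate 1 or 2 (edgeR, adjusted p 0.238 to 0.501) and without either Rlim-labelled library. The 13 mitochondrially encoded genes had 0 calls, with medians of -0.07 in line 1 and -0.80 in line 2.

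The largest fall was that of Sirpa, the CD47 receptor of the immunoglobulin superfamily (chromosome 2, 129592835 to 129632228). It was at 0.111 and 0.120 CPM in the lines, against 13.6 and 13.9 CPM in WT (log2 -6.88 ± 0.19; edgeR, adjusted p = 5.68e-05), and passed with either WT library left out (0.00233 and 0.00238). Olfm1, a secreted olfactomedin, was at 1.63 and 2.62 CPM against 24.1 and 25.4 CPM in WT, and Chst1, a carbohydrate sulfotransferase, at 10.4 and 7.80 CPM against 38.3 and 39.9 CPM in WT (edgeR, adjusted p = 0.0135 and 0.00738). Fgfr3, a fibroblast growth factor receptor overlapping G630022F23Rik, was at 9.43 and 9.36 CPM against 19.4 and 22.0 CPM in WT (edgeR, adjusted p = 0.0473). Olfm1, Chst1 and Fgfr3 did not pass without WT replicate 1 or 2.

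Each genome was then measured on its own, to set changes on both genomes apart from changes of 1. Genes counted as measured on a genome had a mean of at least 20 reads of it over the 4 libraries. Of the 51 genes called higher, 33 were measured on both genomes, and 31 of these were above the WT mean on both genomes in both lines. Of the 52 called lower, 30 were measured on both genomes, and 30 were below the WT mean on both in both lines. For the genes called higher, median log2 changes were 1.79 in line 1 and 1.89 in line 2 on genome 1, and 1.46 and 1.999 on genome 2. For those called lower they were -1.29 and -1.45 on genome 1, and -1.20 and -1.27 on genome 2. As the genes were called on the sum of reads, these medians describe how the change was divided and are not a test of it.

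Named examples show how the changes were divided, evenly for some genes and unevenly for others. Cxcl5 had 4671 and 4403 genome 1 reads in the lines, against 483 and 447 in WT, and 4829 and 4963 genome 2 reads, against 356 and 356 in WT. Nos2 had 752 and 2023 genome 1 reads against 32 and 42 in WT, and 4387 and 12835 genome 2 reads against 183 and 174 in WT. Its genome 1 share was 14.6 and 13.6%, against 14.9 and 19.4% in WT, so the rise was spread over both genomes in the proportion that WT already had. Inmt fell on both, to 120 and 100 genome 1 reads against 2525 and 2810 in WT, and to 186 and 90 genome 2 reads against 1928 and 2107 in WT. Steap4 had 1080 and 1424 genome 1 reads against 30 and 38 in WT, but 28 and 10 genome 2 reads against 9 and 14. Olfm1, on chromosome 2, fell more on genome 1 (log2 -8.38 and -5.36) than on genome 2 (-3.17 and -2.67). In line 1 Anpep fell more on genome 2 (-2.50) than on genome 1 (-0.29), and in line 2 by similar amounts (-2.58 and -2.48). Tsc22d1, Ece1 and Ntn1, chosen after their values were seen, fell on both genomes by less than Inmt. Tsc22d1 fell more on genome 1 (log2 -0.93 and -0.90) than on genome 2 (-0.43 and -0.54). It lies on chromosome 14 beyond Stc1, and its genome 1 share differed from WT by -8.11 and -5.92 points in the lines. Over the 87 genes after Stc1 the medians were -8.90 and -7.60 points, so its neighbours had a similar difference. Ntn1, which encodes netrin 1, had 1454 and 1514 genome 1 reads against 3036 and 3240 in WT, and 3930 and 4273 genome 2 reads against 7834 and 8617 in WT.

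**Figure D4:**
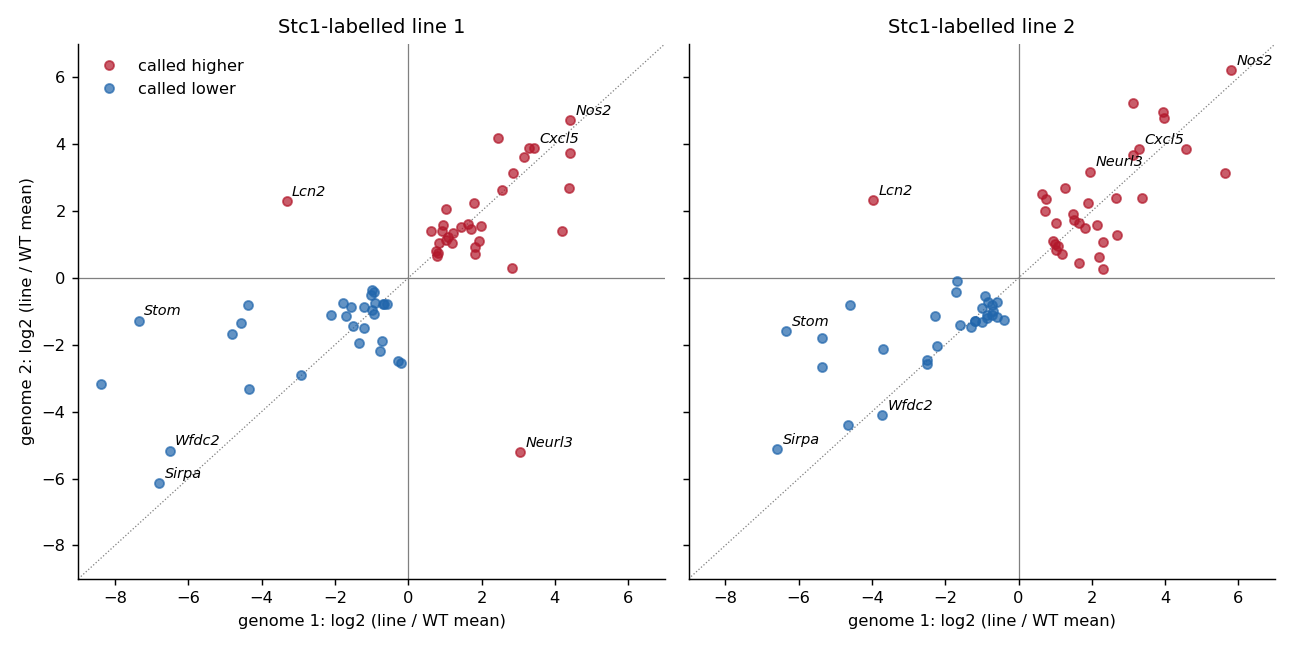
Log2 ratio to the WT mean of genome 1 reads (horizontal) and genome 2 reads (vertical) for the called genes measured on both genomes, in Stc1-labelled line 1 (left) and line 2 (right); the dotted line marks equal change. Points lie at the upper right or lower left except Lcn2 in both lines and Neurl3 in line 1.

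Of the called genes measured on both genomes, Lcn2 and Neurl3 were the exceptions. Lcn2 (chromosome 2, 32384633 to 32388252) had 13213 and 14092 genome 2 reads in the lines, against 2864 and 3001 in WT, but 40 and 26 genome 1 reads, against 423 and 462 in WT. Its genome 1 share was 0.302 and 0.184%, against 12.9 and 13.3% in WT (edgeR, adjusted p = 0.000954). The rise of Lcn2 was thus carried by genome 2, while its genome 1 reads were fewer than in WT. Neurl3 (chromosome 1, 36264597 to 36274679) had 3465 genome 1 and 6 genome 2 reads in line 1. In line 2 it had 1674 and 2429, and in WT 424 and 480 genome 1 reads and 258 and 298 genome 2 reads. Both genomes rose in line 2 and genome 1 in line 1, where the surrounding segment had nearly no genome 2 reads.

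That segment was found in line 1 alone of the 2 lines. From 6209866 to 33742564 on chromosome 1, the median genome 1 share over 39 genes that used both genomes in WT was 98.5% in line 1, against 68.9% in WT, and from 34439851 to 43196984, over 40 genes, it was 99.6% against 69.9%. Genome 2 reads had median log2 changes of -4.28 and -5.80 there, while genome 1 reads changed by 0.10 and 0.14 and all reads by -0.34 and -0.33. A genome was thus nearly absent from these stretches, and Neurl3 was the 1 called gene among the 61 and 58 tested there.

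The changes of called genes were set beside those of their neighbours, since a gained or lost segment moves neighbours together. For 99 of the 103 called genes, 51 higher and 48 lower, at least 50% of the change remained in both lines after the median of the 10 nearest tested genes on each side was taken off. The 4 others were Dcaf11, Tmem106c, Tspan5 and Ntn5, all called lower. With 80% required the count was 88, and with 5 or 20 neighbours on each side it was 97 and 100. Called genes were selected for their change, and the share over all genes was not counted, so these counts are not a test. They used all reads of a gene, so the loss of a genome that gives few of the neighbours' reads would hardly show in them.

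On 3 chromosomes most genes drew less on the minor genome in both lines. On chromosome 2 the median genome 1 share over 899 genes was 1.34 and 1.38% in the lines, against 6.83 and 6.96% in WT, and genome 1 reads had median log2 changes of -1.53 and -1.84. All reads of a gene changed by a median of 0.03 and -0.16. The loss was uneven over genes: summed over chromosome 2, genome 1 gave 150213 and 149871 reads in the lines (6.33 and 6.83%), against 262792 and 285368 in WT (10.9 and 11.05%). Genes chosen after their values were seen kept it, such as Snrpb, of the spliceosome, with 3631 and 4544 genome 1 reads and shares of 56.8 and 58.1%, against 4726 and 5644 reads and shares of 58.2 and 59.3% in WT. On chromosome 9 genome 2 was the minor one: the genome 1 share was 99.9 and 99.9% in the lines, against 98.7 and 98.6% in WT, and genome 2 reads changed by -0.64 and -0.53. On chromosome 11 the genome 1 share was 0.967 and 1.01%, against 1.65 and 1.79% in WT. Summed reads moved less there, with 4.94 and 4.82% from genome 1 against 5.37 and 5.34% in WT on chromosome 11, and 96.2 and 96.2% against 95.1 and 95.2% in WT on chromosome 9. Whether these shifts are changes of chromosome copies was not tested.

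These chromosomes held most changes of genome share. Over 13881 genes tested, the genome 1 share was called higher for 127 (0.915%) and lower for 547 (3.94%), and 638 of the 674 (4.86%) lay on chromosomes 2, 9 and 11. They split into 437 lower on chromosome 2, 91 lower on chromosome 11 and 108 higher on chromosome 9, with 1 higher on chromosome 2 and 1 lower on chromosome 9. The reads of genome 1 alone were lower for 601 of 11341 genes (5.3%), 454 of them on chromosome 2, and higher for 110 (0.97%). The reads of genome 2 alone were lower for 21 of 11747 (0.179%) and higher for 8 (0.0681%). The share count was 113 without WT replicate 1 and 87 without WT replicate 2, the genome 1 count 359 and 341, and the genome 2 count 0 in both cases.

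Chromosome 2 also held more of the genes called lower, 10 of 52 (19.2%), than of all genes tested (7.79%). Of these 10, 8 were measured on both genomes, and all 8 were lower on genome 2 as well as on genome 1 in both lines. The genes were called on the sum of reads, most of which came from genome 2 on this chromosome. Genome 1 reads were lower over the whole chromosome. The count of 8 therefore describes these genes and is not a test of a fall on either genome. Sirpa had 4 and 5 genome 1 reads in the lines against 587 and 605 in WT, and 0 and 1 genome 2 reads against 61 and 82 in WT. Wfdc2 had 1 and 13 genome 1 reads against 185 and 198 in WT, and 5 and 12 genome 2 reads against 194 and 270 in WT. Chst1 kept 4 and 10 genome 1 reads against 137 and 160 in WT, and 268 and 202 genome 2 reads against 890 and 969 in WT. Chst1 and Wfdc2 were called lower on each genome taken apart, as were Trib3 and Ntn1. Ltbp2 and Vtcn1 were called higher on each, and no other called gene passed on both. Of the genes called higher, 35 of 38 tested on genome 1 passed there, but 6 of 46 tested on genome 2 did. Of those called lower, 33 of 40 passed on genome 1 and 8 of 36 on genome 2. Stom, a membrane scaffold protein chosen after its values were seen, fell more on genome 1, with 0 and 1 reads against 158 and 175 in WT, than on genome 2, with 11 and 9 reads against 21 and 40 in WT.

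**Figure D5:**
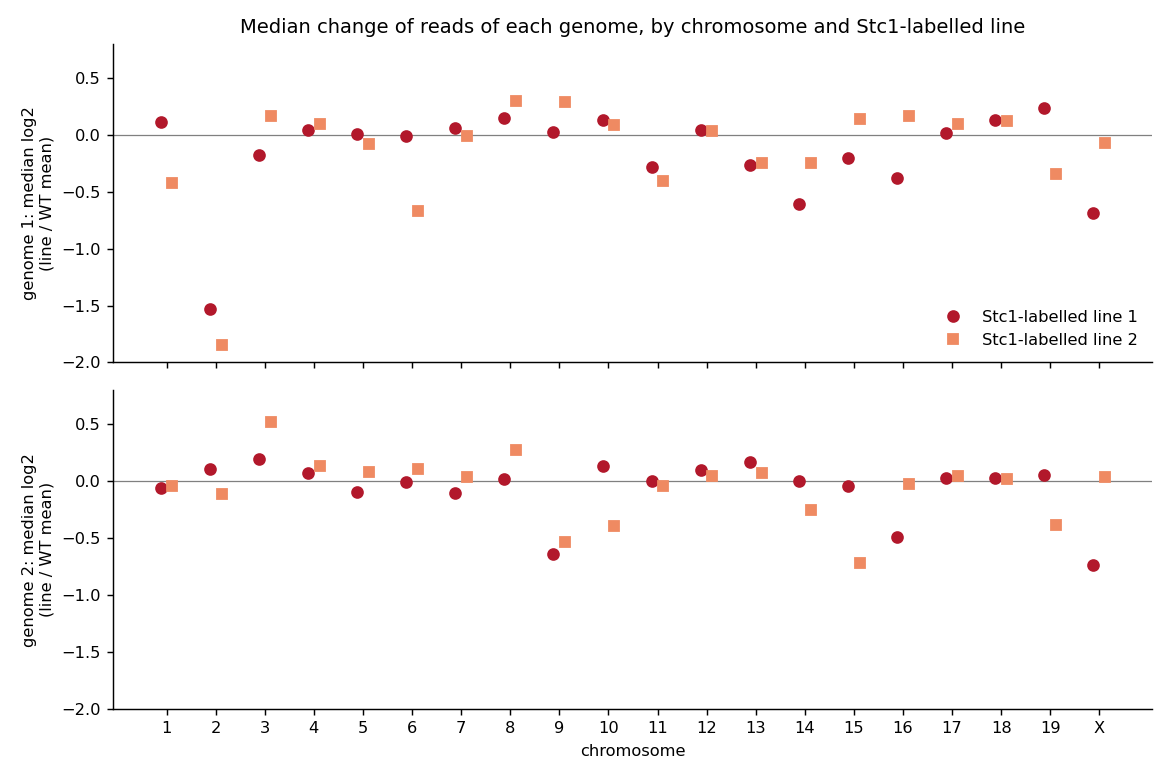
Median log2 ratio to the WT mean of genome 1 reads (top) and genome 2 reads (bottom) for each chromosome in Stc1-labelled line 1 (circles) and line 2 (squares). Genome 1 of chromosome 2 was at -1.53 and -1.84, while chromosome X was low in line 1 and genome 2 of chromosome 15 in line 2.

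Chromosome 13 had similar medians in both lines, with genome 1 reads at -0.26 and -0.25 and a median genome 1 share of 56.3 and 58.0%, against 63.7 and 63.7% in WT. The lines differed along it. Line 1 had 10 positions there with a step of share at least as large as that of line 2 at Stc1, while line 2 had such positions on other chromosomes only. Several other shifts were present in 1 line. In line 1 the median log2 change on chromosome X was -0.68 on genome 1 and -0.73 on genome 2, against -0.07 and 0.04 in line 2. The genome 1 median covered 121 genes, on a chromosome where genome 1 gave a median of 0.336 and 0.289% of reads in WT. Xist, read almost wholly from genome 1, was not lower, with 42476 genome 1 reads in line 1 against 41176 and 41534 in WT. Both genomes of chromosome 16 were low in line 1 (-0.38 and -0.49). In line 2 genome 2 of chromosome 15 was at -0.71 and genome 1 at 0.14, while genome 1 of chromosome 6 was at -0.67 and genome 2 at 0.11. Chromosome 19 was low on both genomes of line 2 (-0.35 and -0.39), and genome 2 of chromosome 3 was high (0.52). Some chromosomes with such shifts held many genes far from WT in that line. Of 407 X-linked genes, 89 were at least 2-fold below WT in line 1 and 19 in line 2, and of 658 genes on chromosome 3, 101 were at least 2-fold above WT in line 2 and 19 in line 1.

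A change of genome share outside chromosomes 2, 9 and 11 was called for 36 genes, 18 in each direction. Gata4, a zinc finger transcription factor (chromosome 14), lost nearly all genome 1 reads: 22 and 24 in the lines, against 858 and 989 in WT, with 1081 and 573 genome 2 reads, against 790 and 876 in WT. Its share was 1.99 and 4.02%, against 52.1 and 53.03% in WT (edgeR, adjusted p = 0.00303), whereas the median share of chromosome 14 was 51.5 and 61.3% in the lines, against 62.3 and 62.4% in WT. The sum of Gata4 reads, at 20.2 and 10.4 CPM against 27.7 and 30.9 CPM in WT, did not pass (edgeR, adjusted p = 0.191). With either WT library left out the share call was lost (edgeR, adjusted p = 0.051 and 0.0546).

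Pam, the enzyme that amidates peptide hormones, gained genome 2 reads, to 663 and 773 in the lines against 174 and 164 in WT, while genome 1 stayed at 700 and 862 reads against 784 and 778 in WT (edgeR, adjusted p = 0.0047 for the share; the gene overlaps B230216N24Rik). Cul9, a cullin, lost genome 2 reads, to 40 and 51 against 162 and 191 in WT, and had 1592 and 3558 genome 1 reads against 1144 and 1405 in WT (edgeR, adjusted p = 0.00635). Egln3, an oxygen-sensing prolyl hydroxylase, moved to a genome 1 share of 68.0 and 63.2%, against 48.4 and 49.7% in WT, and Cebpd to 43.6 and 50.2%, against 30.2 and 30.2% in WT (edgeR, adjusted p = 0.0294 and 0.0364). Cebpd therefore rose on both genomes and more on genome 1, with 923 and 1231 reads of it against 240 and 281 in WT, and 1192 and 1223 genome 2 reads against 555 and 651 in WT.

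The genes furthest apart between the lines were described without a test, each line being 1 library. Luzp2, a leucine zipper protein gene, was at 17.1 CPM in line 1 and had 0 reads in line 2, against 6.62 and 6.49 CPM in WT. Kazn, which encodes a junctional protein of keratinocytes, was at 32.0 and 0.0266 CPM, against 16.2 and 16.5 CPM in WT. Both lines thus left the WT level, in opposite directions. Slc38a1, a glutamine transporter, was at 0.208 CPM in line 1 and 35.0 CPM in line 2, against 18.5 and 18.0 CPM in WT. Xdh, xanthine dehydrogenase, was at 0.637 and 31.5 CPM against 2.64 and 2.59 CPM in WT, and Scara5, a ferritin receptor, at 1.27 and 38.1 CPM against 12.7 and 12.5 CPM in WT. The difference of Scara5 between the lines was present on both genomes, with 3 and 561 genome 1 reads against 95 and 85 in WT, and 58 and 1455 genome 2 reads against 590 and 587 in WT.

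Xist, the RNA that coats the inactive X chromosome, was read almost wholly from genome 1. Xist, chosen after its values were seen, was at 850 CPM in line 1 and 440 CPM in line 2, against 783 and 759 CPM in WT (log2 -0.26 ± 0.28; edgeR, adjusted p = 0.692), overlaps Tsix, and had 99.3 and 99.7% of its reads from genome 1, against 99.45 and 99.6% in WT. Over 340 X-linked genes the median genome 1 share was 0.404 and 0.211% in the lines, against 0.336 and 0.289% in WT. The lines lay on either side of WT, and of 418 X-linked genes tested for share 0 were called in either direction (edgeR). Of 34 measured genes of the X inactivation list 0 were called, with a median log2 change of 0.03. Of 592 X-linked genes tested over all reads, 2 were called higher, Tspan7 and Eda, and 2 lower, Cldn2 and Bex1, of which Tspan7, Eda and Bex1 were named after their values were seen.

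The WT libraries also serve as reference for the other mutants, so levels of the leading genes are given in all of them. Under the Pygo1 label Nos2 reached 348 and 191 CPM and under the Rlim label 191 and 202 CPM, beside 122 and 338 CPM in the Stc1-labelled lines and 5.13 and 4.99 CPM in WT. Cxcl5 was at 310 and 170 CPM and at 420 and 415 CPM in those mutants, beside 244 and 231 CPM in the Stc1-labelled lines. Lcn2 was at 1136 and 913 CPM and at 1073 and 1104 CPM, beside 265 and 269 CPM. Fxyd2 was at 0.705 and 0.702 CPM and at 4.34 and 3.88 CPM, beside 8.48 and 8.19 CPM. WT thus stood apart from all mutant libraries for these 4 genes. Sirpa did not follow this, at 0.0881 and 0.110 CPM with the Pygo1 label and 52.2 and 54.8 CPM with the Rlim label, beside 0.111 and 0.120 CPM in the Stc1-labelled lines. Whether these levels differ between mutants was not tested here.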

How the data were processed

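RNA of 8 Patski libraries was sequenced, and the 4 labelled Stc1-KO (2 lines) and WT (2 libraries) are compared here. The authors deposited raw counts per Ensembl gene in 3 measures per library: all reads, genome 1 reads and genome 2 reads. The tools and build named, per the submitters' processing notes, are featureCounts, HISAT2 2.0.5 and Cufflinks, with mm10; the annotation, strand setting and genome assignment are not given in the sources used here, so overlapping genes are uncertain and genome shares are compared between libraries, not read as absolute. Of 49670 genes, 49411 matched GENCODE M21 for names and GRCm38 coordinates.

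Counts were fitted over all 8 libraries with edgeR 4.0.16 in R 4.3.3 (TMM, default expression filter, 1 mean per group, quasi-likelihood test, Benjamini-Hochberg adjustment over all tested genes). The common biological coefficient of variation was 24.6%. Genome shares used a term per library and a genome term per group, for genes with a mean of at least 20 reads with a genome; 329 genes whose genome reads exceeded all reads were left out. Log2 values of single lines are against the WT mean, with 0.0131 CPM added. The models were tested on simulated data, where the smaller of the changes drawn were recovered for a minority of genes and false calls were somewhat above the threshold; a gene that was not called may have changed. Figures used matplotlib 3.10.9.

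Named genes were the target, the 10 largest rises and falls among called genes averaging 5 CPM or more, up to 4 called members of each of 24 gene lists, and up to 5 genes in each direction between the lines and by genome share; uncalled list members serve as examples. The comparison, lists and rules were chosen with earlier results of these data known. Alternatives were DESeq2 1.42.0, other scalings and filters, the compared groups alone, a replicate term and each library left out.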

Additional observations from a re-analysis of the deposited data

How the results depend on the processing

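Counts depended on the spread estimate and on single WT libraries. The 51 higher and 52 lower genes were 172 and 189 without a filter, 492 and 464 by DESeq2, 0 and 0 when the other mutants were left out of the fit, and 9 and 9 with a replicate block. They ran from 0 to 2073 higher and from 3 to 2411 lower with 1 library left out. The share count of 674 was 373 with the replicate block and 87 to 1103 with a library left out. The genome 1 count of 711 was 319 with the compared libraries alone and 341 to 3345 with a library left out. The genome 2 count of 29 was 17 at a mean of at least 50 reads, 3 with the compared libraries alone, 4 with the replicate block and 0 to 1450 with a library left out. The log2 fold change of Stc1 ran from 0.065 to 4.28 with a library left out. Fits that leave 1 library in a group assume that it varies like the others. Same-numbered deviations of the Stc1-labelled and WT libraries had a correlation of 0.000913, so replicate numbers showed no pairing between these groups. Over the other pairs of groups it ran from -0.172 (Stc1 and Pygo1 labels) to 0.172 (WT and Rlim label). The replicate block left 18 of the 103 calls. Scaling each chromosome to WT gave 135 calls, 93 of them shared. Under the alternatives run, no called gene named by rule reversed its log2 change. No gene named for its genome share reversed that change of share either. Signs of other named genes were not compared, and Luzp2, Kazn and Slc38a1 had the lines on opposite sides of WT. The median log2 change of all genes, 0.01, lay between -0.02 and 0.04. What depth contributes was not tested, nor was the cause of the lost calls.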
